A study of Mus musculus with 8 samples.

Results

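The genes described here are 10 components and targets of the arm of Wnt signalling that acts through beta-catenin: the receptors Lgr4, Lgr5 and Lgr6, the transcription factors Tcf7, Lef1, Tcf7l1 and Tcf7l2, and the negative regulators Axin2, Nkd1 and Rnf43. They were taken by gene symbol from the 23337 genes of the deposited files, and all 10 symbols were found. Messenger RNA was sequenced from murine oviductal epithelial (MOE) cells, an FVB mouse cell line from the oviduct, the mouse counterpart of the fallopian tube. Confluent cells were trypsinised and replated on collagen in 2D or in 3D gels, and all stayed there for 6 h in their usual medium with EGF left out. Each group held 4 libraries, numbered 1 to 4. The labels name a single cell line and no genetic change, and they are silent on whether each library had its own culture, so the p-values cover only the scatter among these 8 libraries and part of it may be technical.

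In the beta-catenin pathway, Wnt ligands at the cell surface stop a destruction complex, built on Axin proteins, from marking beta-catenin for degradation. Beta-catenin then enters the nucleus and binds TCF/LEF factors, which sit on DNA and otherwise recruit repressors. Axin2, Nkd1, Rnf43 and Lgr5 are themselves transcribed in response to the pathway in many tissues, so they are widely read as its output and, for Axin2, Nkd1 and Rnf43, act as brakes on it. Lgr4, Lgr5 and Lgr6 bind R-spondins and thereby keep the ubiquitin ligases Rnf43 and Znrf3 from removing Wnt receptors. Lgr5 marks stem cells in several epithelia, and Wnt signalling is known to maintain epithelial progenitors of the oviduct.

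TCF/LEF factors recognise a short DNA word, so the available promoter windows of the 10 genes were read for it. RefSeq promoter windows of 300 bases (250 before and 50 after an annotated start, build GRCm38.p6) were given for 9 of the 10 genes, 15 windows in all. Lgr5 had no window and was not searched. The stretch before the Tcf7 start nearest the beginning of that gene appears to hold coding sequence of a longer form. That window, counted among the 15, may therefore not be its promoter. The search took 4 words on both strands, namely CTTTGAT (the usual form), the variant CTTTGAA with a changed end, the variant CTTTGTA with another, and lastly the variant CTTTGTT. It found them in 2 of the 15 windows, and in 16.9% of the 32851 windows of all genes. These were a window of Lef1 (147 bases before its annotated start) and a window of Tcf7l2 (14 bases before its annotated start). Both belong to alternative starts inside the gene, at chr3:131156044-131156293 for Lef1 and chr19:55895071-55895320 for Tcf7l2. The genes begin at 131110471 and 55741820, and the window nearest to each gene's own beginning held none of the words. CTTTGAT alone was in 0 of the 15 windows, against 3.73% of all windows. These counts describe the letters in the windows and say nothing of factor binding. The 250 bases before the starts of Axin2 and Lgr6, the genes with a printed window whose deposited values separated the groups in opposite directions, are shown here 5′ to 3′ with CG dinucleotides in capitals. Axin2 lies at chr11:108920099-108920348 on the plus strand and Lgr6 at chr1:135105277-135105526 on the minus strand.
Axin2: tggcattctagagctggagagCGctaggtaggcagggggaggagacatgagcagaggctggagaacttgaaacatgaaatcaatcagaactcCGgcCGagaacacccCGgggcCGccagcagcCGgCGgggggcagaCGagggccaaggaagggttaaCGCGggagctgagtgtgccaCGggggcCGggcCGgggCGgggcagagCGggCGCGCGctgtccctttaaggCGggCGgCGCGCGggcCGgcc
Lgr6: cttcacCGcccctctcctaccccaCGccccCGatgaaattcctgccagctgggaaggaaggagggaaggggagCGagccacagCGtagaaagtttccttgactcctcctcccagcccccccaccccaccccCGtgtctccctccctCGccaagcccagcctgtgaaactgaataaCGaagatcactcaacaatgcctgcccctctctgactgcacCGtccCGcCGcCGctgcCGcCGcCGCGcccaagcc
Both are rich in G and C (67.7% over the whole window for Lgr6 and more for Axin2, against a median of 52.7%), at percentiles 90.7 for Axin2 and 87.1 for Lgr6 among all windows. The printed stretches hold 24 and 16 CG dinucleotides. Neither holds any of the 4 words.

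The deposited values were whole reads over a size factor of each library, called normalized counts below. Recovered depth was 15692699 to 25862036 reads per library, with 14064 to 14598 genes detected. Of the oviductal epithelial markers examined, Krt8 (1006 to 1884 CPM, reads scaled to library size) and Pax8 (441 to 566 CPM) were abundant in every library, although Krt8 itself was called lower on 3D collagen (0.587 times the 2D mean, limma adjusted p = 0.0397), whereas Epcam reached at most 1.26 CPM and Ovgp1, an oviductal secretory glycoprotein, at most 1.37 CPM. Genes were compared with limma on log2(normalized count + 1), a scale that understates the change of low genes. The test covered the 11820 genes that reached 10 normalized counts in 4 or more libraries, with Benjamini-Hochberg adjustment over all of them and a threshold of 0.05. Of these, 2.33% were called higher and 3.39% lower on 3D collagen. Without any overlap between the groups, 8.05% were higher and 10.4% lower.

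On 3D collagen the stem cell receptor Lgr5 and the transcription factor Tcf7 rose, by 3.32-fold and 2.20-fold in mean normalized count. Axin2, the usual reporter gene of beta-catenin output, was 2.03 times as high in mean and did not pass the test. The receptor Lgr6 had a 3D mean 0.530 times that on 2D collagen and did not pass either, and Lgr4 differed little. Of the 10 genes, 8 entered the test, each with at least 10 normalized counts in all 8 libraries. Of those 8, 2 were called higher and 0 lower by limma (5.72% of all tested genes were called in either direction). In normalized counts 3 lay higher without overlap (Lgr5, Tcf7 and Axin2) and 1 lower without overlap (Lgr6). The groups of Lgr6 overlapped when reads were scaled to library size. At an unadjusted p under 0.05 limma had 4 of the 8, the same 4 genes. The largest p of these 4, that of Axin2 (limma unadjusted p = 0.00913), ranked 1242 from the smallest among the 11820 tested genes. Tcf7l2, at an unadjusted limma p of 0.0716, ranked 3364. An unadjusted p under 0.05 was thus common among all tested genes, which limits what this count shows. The median log2 fold change of the 8 was 0.61, against 0.017 for all genes tested.

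**Figure D1:**
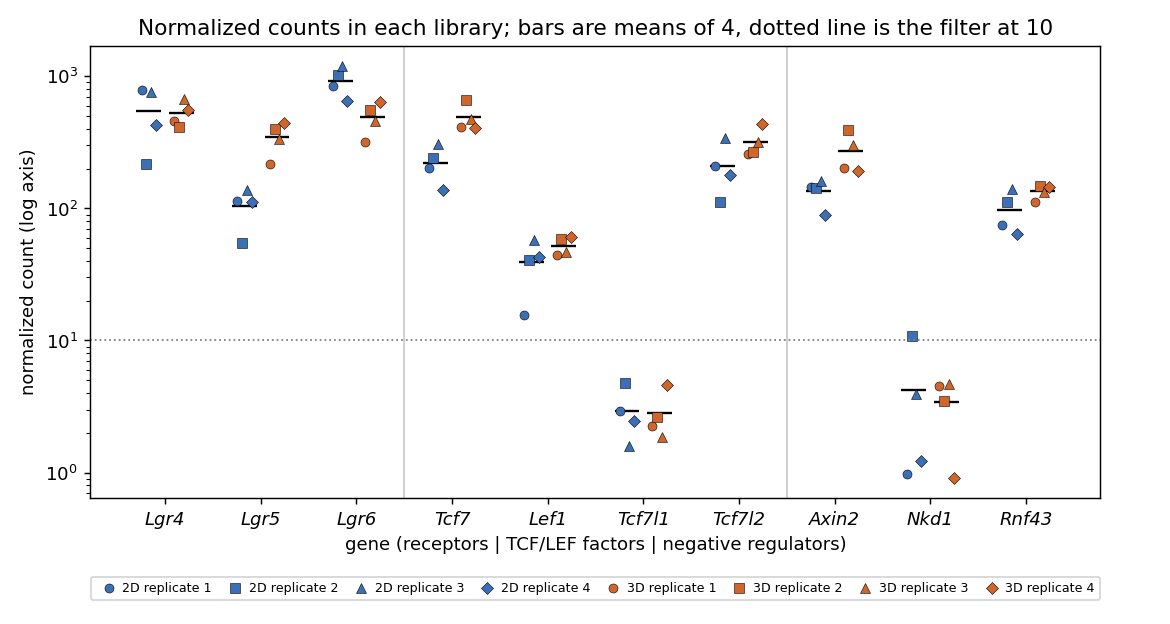
Normalized counts (log axis) of the 10 genes in each library, with blue symbols for 2D and orange for 3D collagen, a symbol shape per replicate number and bars at the means of 4 libraries. Lgr5, Tcf7 and Axin2 lie higher in all 4 3D libraries than in any 2D library, Lgr6 lies lower, and Tcf7l1 and Nkd1 lie mostly under the filter at 10.

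Lgr5 (chromosome 10, 115450311 to 115587780, minus strand, mm10) encodes the R-spondin receptor that marks stem cells. Its normalized counts on 2D collagen were 115, 54.9, 137 and 113 in replicates 1 to 4, and on 3D collagen they were 216, 401, 333 and 443. Every 3D library lay above every 2D library, with 2D replicate 2 and 3D replicate 1 the lowest of their groups. The means were 105 ± 35.0 and 348 ± 98.8 (SD, n = 4 per group), from 46 to 484 reads per library. The log2 fold change was 1.75 (SE 0.34, 95% interval 0.98 to 2.51, limma adjusted p = 0.0225), which ranked 93 among the 11820 tested genes counted from the highest. It no longer passed when 3D replicate 2, 3 or 4 was dropped (adjusted p in limma 0.0791, 0.0813 and 0.0507) and without both libraries numbered 4 (0.0640), while the log2 fold change over all alternatives ran from 1.47 to 1.96.

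Lgr6 (chromosome 1, 134983301 to 135105276, minus strand), a receptor of the same family that marks progenitors in skin, had the opposite sign. It measured 848, 1026, 1189.5 and 657 normalized counts in 2D replicates 1 to 4 and 319, 554, 459.9 and 637 in 3D replicates 1 to 4. The groups did not overlap in normalized counts, but 2D replicate 4 and 3D replicate 4 lay close together. In reads scaled to exon length and library size (RPKM) their order turned, at 4.99 and 5.53. The separation of Lgr6 thus depends on the scaling. The log2 fold change was −0.93 (SE 0.26, 95% interval −1.50 to −0.35) and missed the threshold (limma adjusted p = 0.0662). It passed without both libraries numbered 4 (limma adjusted p = 0.0382, log2 fold change −1.22) and in DESeq2 on the recovered reads (adjusted p = 0.0138), with adjusted p from 0.0138 to 0.343 over all alternatives.

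Lgr4, the most broadly expressed receptor of the family, measured 793, 216, 769 and 430 normalized counts on 2D collagen and 463, 412, 679 and 558 on 3D collagen. The 3D values lay inside the 2D range, which was spread by the low 2D replicate 2. Its log2 fold change of 0.087 had a 95% interval from −0.81 to 0.98 (limma adjusted p = 0.916), so changes of that size in either direction are not resolved by these libraries.

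The makeup of the receptor family was compared per kilobase of exon, since longer transcripts give more reads. Lgr5 made up 4.2% of the summed reads per kilobase of the 3 receptors in 2D replicate 1, and 2.8%, 4.2% and 6.1% in 2D replicates 2 to 4. In the 3D libraries its share was 14.4%, 20.5%, 15.1% and 18.7%, so the groups were apart. The share of Lgr6 went from 58.0% ± 13.9 to 36.5% ± 5.8 (SD, n = 4 per group), also without overlap, and that of Lgr4 from 37.7% ± 13.1 to 46.3% ± 8.7 with overlap. With the longest transcript as the length, an alternative added after the data were seen, the Lgr5 share was 8.2% on 2D and 28.7% on 3D collagen, so its size depends on the exons counted and its separation did not. The summed level of the 3 receptors overlapped between the groups, at 11.8 ± 3.58 on 2D and 10.8 ± 2.73 on 3D collagen in RPKM (reads scaled to exon length and library size).

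**Figure D2:**
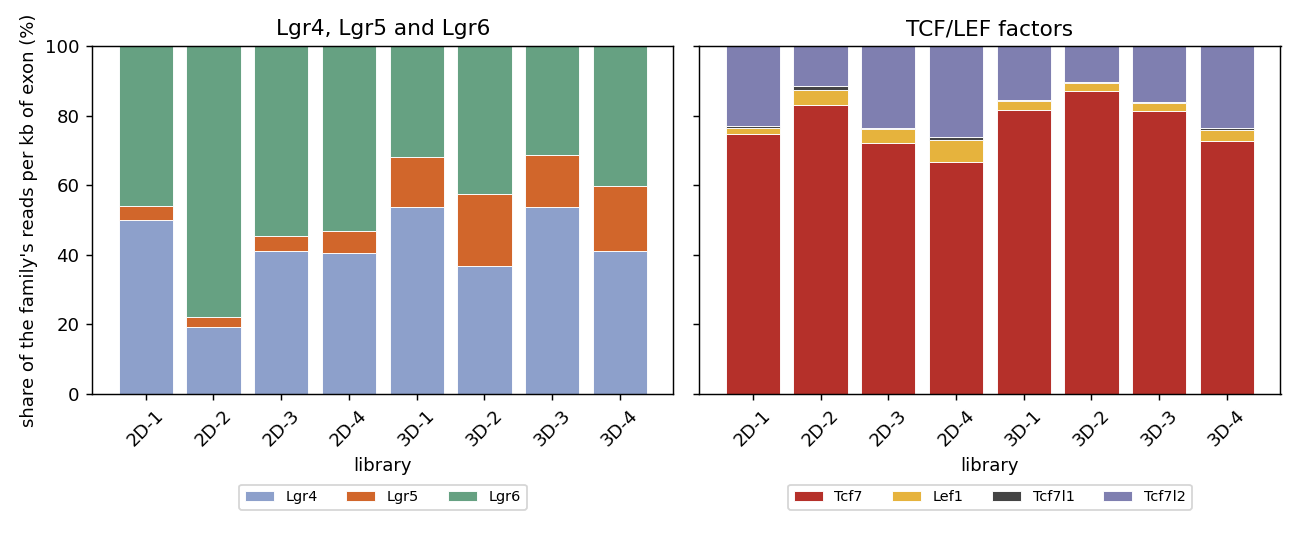
Share (%) of each gene in the summed reads per kilobase of exon of its family, for the 3 Lgr receptors (left) and the 4 TCF/LEF factors (right), with 1 bar per library. Lgr5 takes 14.4% to 20.5% of the receptor bar in the 3D libraries and 2.8% to 6.1% in the 2D libraries, while Tcf7 is the main part of every TCF/LEF bar.

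Whether 2 genes of a family changed by different amounts was tested on their log2 ratio within each library, where library scaling has almost no part. The log2 ratio of Lgr5 to Lgr6 counts ran from −4.20 to −2.53 on 2D collagen and from −0.56 to −0.46 on 3D collagen. The difference of 2.67 had an exact two-sided permutation p = 0.0286, the smallest that 4 against 4 libraries allow. The ratio of Lgr4 to Lgr5 differed by −1.66 on the log2 scale, with the same exact permutation p of 0.0286, and that of Lgr4 to Lgr6 by 1.01 (exact permutation p = 0.0857). In all there were 12 pairs, 3 among receptors, 6 among TCF/LEF factors and 3 among negative regulators. After adjustment over the 12, both Lgr5 comparisons had exact permutation p = 0.171 and 0 of the 12 passed, which with such a smallest p would take most of the 12 at that limit. Of the 12, 2 had an unadjusted p under 0.05, and no other tool was run on the ratios.

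Tcf7 (chromosome 11, 52252371 to 52283014, minus strand) encodes TCF1, a TCF/LEF factor best known from T cells and itself a target of the pathway. Its normalized counts were 203, 241, 309 and 137 in 2D replicates 1 to 4 and 411, 663, 479 and 404 in 3D replicates 1 to 4. All 3D libraries lay above all 2D libraries, with 3D replicate 2 the highest of them. The means were 223 ± 71.9 and 489 ± 120.4 (SD, n = 4 per group), and the log2 fold change was 1.16 (SE 0.28, 95% interval 0.54 to 1.79, limma adjusted p = 0.0430). The call held without 2D replicate 3 (limma adjusted p = 0.0435) and was lost without any other single library (0.0508 to 0.133), without both libraries numbered 4 (0.0704) and with no filter on low genes (0.0514). The log2 fold change ran from 0.95 to 1.34 over all alternatives.

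Tcf7l2, the factor that carries beta-catenin signals in the intestine, ranged from 112 to 339 normalized counts on 2D and from 259 to 439.9 on 3D collagen. The groups overlapped, and its log2 fold change of 0.68 (95% interval −0.073 to 1.44) did not pass (limma adjusted p = 0.251). Lef1, an activating factor that is also a common target of the pathway, ranged from 15.6 to 57.7 on 2D and from 44.2 to 60.4 on 3D collagen, with a log2 fold change of 0.54 (95% interval −0.36 to 1.43, limma adjusted p = 0.449). An antisense gene model, Gm43352, overlaps 13.7% of the exonic bases of Lef1, and without a stated strand setting its reads cannot be told apart. Tcf7l1, mainly a repressor, had 2 to 5 reads per library and was not tested.

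Per kilobase of exon Tcf7 made up 66.8% to 83.1% of the 4 TCF/LEF factors on 2D and 72.6% to 87.0% on 3D collagen, so its share overlapped between the groups. With the longest transcript as the length, its share was 47.6% to 69.5% on 2D and 54.5% to 75.2% on 3D collagen. The size of the share thus depends on the exons counted, and the overlap did not. The summed level of the 4 factors did not overlap, at 4.07 to 7.99 RPKM on 2D and 9.63 to 15.6 RPKM on 3D collagen. None of the 6 pairs of TCF/LEF factors had an unadjusted p under 0.05 (exact permutation test), the smallest being that of Tcf7 against Tcf7l1 (p = 0.0571). The counts are per gene and do not separate the long Tcf7 forms from those without the beta-catenin binding end.

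Axin2 (chromosome 11, 108920349 to 108950783, plus strand), a scaffold of the destruction complex and a feedback target, measured 145, 143, 162 and 89.5 normalized counts in 2D replicates 1 to 4. In 3D replicates 1 to 4 it measured 204, 395, 305 and 193. The groups did not overlap, with the 3D values of replicates 1 and 4 nearest to the 2D range. The means were 135 ± 31.5 and 274 ± 94.9 (SD, n = 4 per group), and the log2 fold change of 0.99 (SE 0.30, 95% interval 0.31 to 1.67) missed the threshold (limma adjusted p = 0.0869). It passed in limma after trends with GC content were removed (adjusted p = 0.0343) and in DESeq2 (adjusted p = 0.0152), with adjusted p from 0.0152 to 0.312 over all alternatives. An antisense gene model, Gm11670, overlaps 3.80% of its exonic bases.

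Rnf43, the ligase that clears Wnt receptors from the surface, ranged from 63.7 to 141 normalized counts on 2D and from 111 to 148 on 3D collagen. The groups overlapped through 2D replicates 2 and 3, and the log2 fold change of 0.52 (95% interval −0.14 to 1.18) did not pass (limma adjusted p = 0.316). Nkd1, which binds Dishevelled, had 1 to 9 reads per library and was not tested. Its normalized counts of 0.974 to 10.8 on 2D and 0.914 to 4.66 on 3D collagen overlapped, and at this depth a change in Nkd1 was not detectable.

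**Figure D3:**
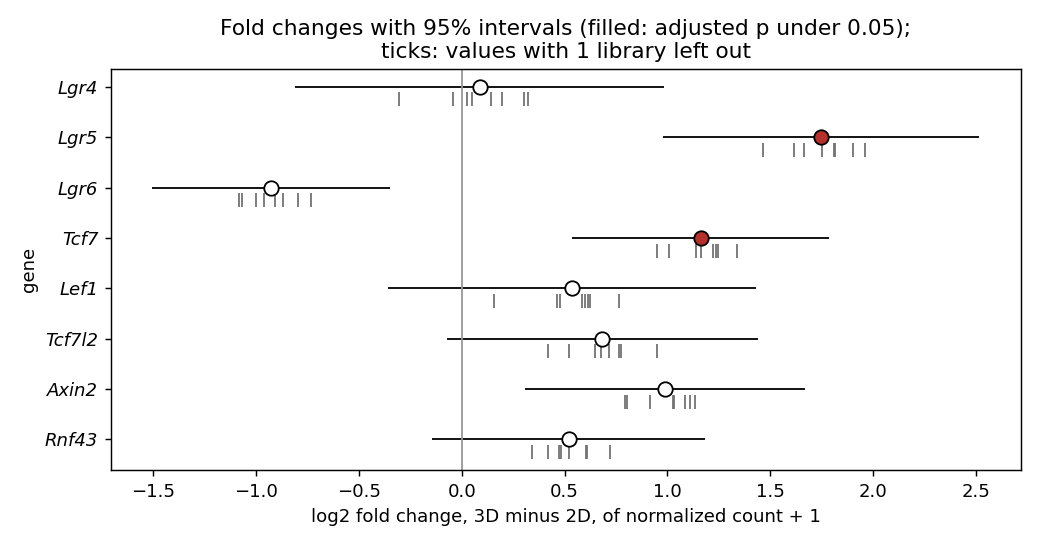
Log2 fold changes (3D minus 2D, of normalized count + 1) of the 8 tested genes, with 95% intervals as lines, filled points for a limma adjusted p under 0.05 and grey ticks for the values with 1 library left out. Lgr5 and Tcf7 are filled, the interval of Lgr6 lies wholly below 0 and that of Axin2 wholly above it, and only the ticks of Lgr4 fall on both sides of 0.

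Ordered by level per kilobase of exon, the 2D libraries had Lgr6 first (6.56 ± 1.45 RPKM, SD, n = 4), then Lgr4 (4.69 ± 2.51) and Tcf7 (4.10 ± 1.25), neighbours whose ranges overlapped. Axin2 (1.19 ± 0.27), Tcf7l2 (1.18 ± 0.56), Rnf43 (0.72 ± 0.24), Lgr5 (0.51 ± 0.19) and Lef1 (0.22 ± 0.097) followed in RPKM, each overlapping the next, and Axin2 lay clear of Tcf7. Nkd1 and Tcf7l1 came last at 0.042 and 0.036 RPKM. On 3D collagen Tcf7 came first at 10.2 ± 2.46 RPKM, clear of Lgr4 (4.96 ± 1.31) and Lgr6 (4.00 ± 1.32). Axin2 (2.73 ± 0.93), Tcf7l2 (2.03 ± 0.67), Lgr5 (1.89 ± 0.63) and Rnf43 (1.13 ± 0.20) overlapped as neighbours, and Lef1 (0.33 ± 0.068 RPKM) lay clear below Rnf43. Lgr5 thus stood seventh among the 10 on 2D and sixth on 3D collagen. These ranks depend on the length used, here all exonic bases of a gene. For Lgr5 that was 10264 bases, against 4793 in its longest transcript, and for Tcf7l2 8775 against 3715.

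The genes with the pattern most like Lgr5 over the 8 libraries were found by the root-mean-square difference of log2 values, each gene centred on its own mean, among 10780 other tested genes with a descriptive symbol. They were Myo10 (difference 0.19), Ptpre (0.22), Kif2a (0.24), Marcks (0.28) and Tcf4 (0.29). Tcf4 here is the E-protein gene, not Tcf7l2, which is also called TCF4 in the Wnt field. Any symbol starting with A, B, C, D, E or I directly followed by a digit was counted as not descriptive. Named genes with a symbol of that form were thus not compared. Myo10, an unconventional myosin of filopodia, averaged 1338 ± 499 normalized counts on 2D and 4480.4 ± 1263 on 3D collagen. For Tcf7 the nearest genes were Ndrg4 (0.12), Sash1 (0.14), Zxda (0.19), Axin2 (0.19) and Vgll4 (0.20). Axin2 was thus the fourth nearest gene to Tcf7 and ranked 760 by likeness to Lgr5. Rnf43 ranked 202 by likeness to Tcf7 and 1934 by likeness to Lgr5, and Lgr6 was among the least like both, at rank 9247 for Tcf7 and 9913 for Lgr5.

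The R-spondins, ligands of the Lgr receptors, were nearly absent: Rspo1, Rspo2 and Rspo4 had 0 reads in all 8 libraries and Rspo3 had 1. Over the 157424306 reads of the 8 libraries a count of 0 allows a level of up to 0.0191 CPM, a limit for counting error only. Znrf3, the partner ligase of Rnf43, was the 1 tested gene of that list. It averaged 57.3 ± 30.7 and 118 ± 15.9 normalized counts on 2D and 3D collagen without overlap, and did not pass (limma adjusted p = 0.125, 95% interval of the log2 fold change 0.26 to 2.15).

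Of 18 tested genes of the destruction complex and Dishevelled, limma called 0 in either direction, against 5.72% of all tested genes, and the median log2 fold change was 0.17. Without overlap between the groups, 5 of the 18 lay higher and 4 lower, against 8.05% and 10.4% of all tested genes. The 2 most abundant were beta-catenin itself and a casein kinase. Ctnnb1, which encodes beta-catenin, ranged from 10730.2 to 18927 normalized counts on 2D and from 22173 to 24888 on 3D collagen, without overlap. Its log2 fold change of 0.73 (SE 0.19) narrowly missed the threshold (limma adjusted p = 0.0521) and passed with TMM factors (0.0455), with a filter at 50 in place of 10 (0.0489), with library size as the only scaling (0.0393), after GC trends were removed (0.0284), without 2D replicate 3 (0.0352) and in DESeq2 (0.00695). For the kinase Csnk1d the log2 fold change was −0.13 (adjusted p = 0.615 in limma), whose sign turned with library size as the only scaling and after GC trends were removed. Axin1, the constitutive relative of Axin2 and named after its values were seen, averaged 2029 ± 283 on 2D and 1389 ± 47.5 on 3D collagen (log2 fold change −0.54, limma adjusted p = 0.0537).

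Among 24 nuclear partners of beta-catenin and TCF, 1 fell and 0 rose, against 3.39% and 2.33% of all tested genes, with a median log2 fold change of −0.071. A count of 1 in 24 is near that background. Bcl9l, which links beta-catenin to the coactivator Pygopus, fell, from 2829, 4491, 4110 and 2798 normalized counts on 2D to 2084, 1809.9, 1552 and 1445 on 3D collagen. The groups did not overlap, and the log2 fold change was −1.03 (SE 0.20, limma adjusted p = 0.0230). It no longer passed when 2D replicate 3 or 3D replicate 2, 3 or 4 was dropped (adjusted p in limma 0.0564, 0.0706, 0.0879 and 0.0511). Aes (log2 fold change −0.48, limma adjusted p = 0.217) and the chromatin remodeller Smarca4 (−0.30, 0.323), the 2 most abundant of the list, did not pass.

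Of 34 other genes that respond to beta-catenin in some tissue, 22 were tested, 3 rose and 1 fell, against 2.33% and 3.39% of all tested genes, and the median log2 fold change was 0.48. The count of 1 lower is near that background. Without overlap between the groups, 6 of the 22 lay higher, Smoc2 among them, and 1 lower, against 8.05% and 10.4% of all tested genes. Smoc2, a matricellular protein of the intestinal stem cell signature, rose from 9.74, 14.3, 5.54 and 15.9 normalized counts on 2D to 29.4, 58.5, 39.2 and 75.9 on 3D collagen. Its groups did not overlap, and the log2 fold change was 2.07 (SE 0.42, limma adjusted p = 0.0258). On 2D collagen only replicates 2 and 4 reached the filter at 10, so Smoc2 entered the test through its 3D libraries, where it was high. It had 7 to 83 reads per library. Smoc2 no longer passed when 2D replicate 1 or 3 or 3D replicate 2, 3 or 4 was dropped (adjusted p in limma 0.0517 to 0.0886), nor without both libraries numbered 4 (0.0517). Sox9, a transcription factor of progenitor cells, and the hyaluronan receptor Cd44 were the others that rose (log2 fold changes 1.54 and 0.82), and Myc, the growth regulator, fell (−1.09). Sox9 no longer passed when 3D replicate 1, 2 or 3 was dropped, nor Myc without 3D replicate 1 or 3 or both libraries numbered 4. The Cd44 call was lost without any single library except 2D replicate 1 and 3D replicate 4, and after GC trends were removed (limma adjusted p = 0.108). Sp5, a near-universal target of the pathway that was named after its values were seen, was nearly level at −0.027 on the log2 scale (SE 0.34, adjusted p = 0.972 in limma).

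Of 19 Wnt ligands, 4 were tested and all 4 fell, against 3.39% of all tested genes called lower. The median log2 fold change of the 4 was −1.71, while the other 15 had too few reads. The 4 were Wnt7a (log2 fold change −3.73, limma adjusted p = 0.00160), Wnt7b (−1.75, 0.00280), Wnt9a (−1.67, 0.0151) and Wnt4 (−0.93, 0.0360). Wnt7a entered the test through its 2D libraries, since its 3D replicates 1 and 2 lay under 10 normalized counts. Wnt9a no longer passed when 3D replicate 1 was dropped (adjusted p = 0.0516 in limma), nor did Wnt4 without any single library except 3D replicate 4, without both libraries numbered 4, with library size as the only scaling and after GC trends were removed (0.0507 to 0.114).

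**Figure D4:**
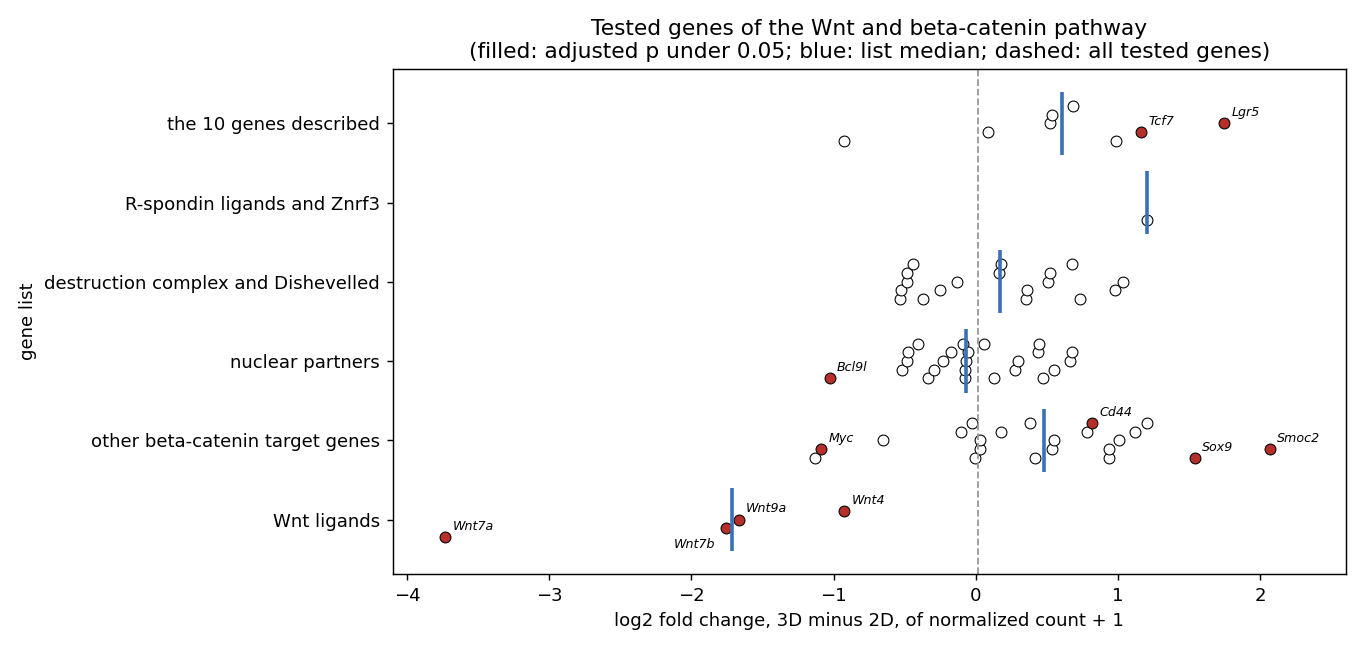
Log2 fold changes (3D minus 2D, of normalized count + 1) of the tested genes of each list, with filled points for a limma adjusted p under 0.05, blue lines at list medians and a dashed line at the median of all tested genes. The 4 tested Wnt ligands lie at −0.93 and below, while Lgr5, Tcf7, Sox9, Smoc2 and Cd44 lie at 0.82 and above.

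Because Lgr5 and Tcf7 are also markers of other cell types, transcripts of intestine and T cells were examined beside them. Fewer cells of a type and less RNA per cell cannot be told apart in such bulk libraries. The summed level of 14 intestine genes (of 16 listed) was 8.47 to 32.0 CPM on 2D and 11.7 to 25.7 CPM on 3D collagen. Krt20 led this list on average (3.91 to 11.7 CPM, highest in 3D replicate 4). The highest sums were those of 2D replicate 2 and of 3D replicates 1 and 2, where Lgr5 measured 54.9, 216 and 401 normalized counts, the lowest of its group in 2D replicate 2 and 3D replicate 1 and the second highest of its group in 3D replicate 2. Without those 3 libraries, which leaves 3 against 2, the log2 fold changes were 1.66 for Lgr5 and 1.10 for Tcf7, with limma adjusted p of 0.0889 and 0.237, where 14 genes were called among all tested. The T cell receptor genes Cd3d, Cd3e and Cd3g were each at or under 0.101 CPM in every library, whereas Lck, a T cell kinase of the same list, was at 3.09 to 6.06 CPM in every library. The sum of the 12 leukocyte genes was 16.6 to 24.5 CPM on 2D and 11.6 to 16.6 CPM on 3D collagen, and none of the 12 was at 0 throughout. The macrophage receptor Csf1r led it, at 13.1 to 21.2 CPM on 2D and 7.55 to 12.5 CPM on 3D collagen. Its groups did not overlap, and limma did not call it. Liver genes (8 of 8) summed to 2.18 to 23.7 CPM on 2D and 0.434 to 27.2 CPM on 3D collagen, highest in 2D replicate 2 and 3D replicate 1, with no listed liver gene at 0 throughout. Ciliated cell genes (6 of 8, Sntn at 0 throughout) summed to 61.3 to 86.6 and 16.5 to 73.7 CPM, led by Foxj1. Stromal genes (8 of 8) summed to 3.44 to 19.5 and 4.24 to 17.4 CPM, led by Dcn. Of them Pdgfra, at 3 to 18 reads per library, was called higher on 3D collagen (3.56 times the 2D mean, limma adjusted p = 0.0340) without overlap. Every 2D library had Pdgfra under the filter at 10, so it entered the test only through the 3D libraries, where it was high. Its call and its separation are therefore partly set by that filter. Endothelial genes (6 of 6) summed to 14.3 to 29.4 and 17.2 to 38.9 CPM. The part of these transcripts in the values of the 10 genes was not tested.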

How the data were processed

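RNA was sequenced from 4 libraries on 2D and 4 on 3D collagen. The submitters' processing notes name HTSeq 0.6.1p1, mm10 and DESeq2. No aligner, annotation or strand setting is given in the sources used here. The authors deposited a normalized signal for each gene. Multiplying by each library's divisor gave whole reads for 100% of values (tolerance 0.001 reads), and these divisors equalled size factors of the DESeq2 type. The design named a count test for raw counts only, and for such normalized values limma.

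The main test was limma 3.58.1 (R 4.3.3) with a trended, robust prior variance on log2(normalized count + 1). On recovered reads edgeR 4.0.16 called 677 genes, against 676 in limma, and DESeq2 1.42.0 was a further alternative. The script was tested on simulated data. Exonic lengths, positions and GC content came from GENCODE M21 (GRCm38, the same assembly as mm10), with 22857 symbols matched. Library pairs within a group differed by more than counting noise (chi-square per degree of freedom of at least 24.6).

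The 10 genes, the lists and the tests were chosen with earlier results of these data known. Genes were named by a rule: all 10, up to 4 called genes with the smallest adjusted p per pathway list (or its 2 most abundant), and the 5 genes nearest in pattern to Lgr5 and to Tcf7. Alternatives were other scalings, pseudocounts, filters and tools, a GC correction, a replicate block and leaving out libraries.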

Additional observations from a re-analysis of the deposited data

How the results depend on the processing

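Of the 10 genes, 2 were higher and 0 lower in the main test. The higher count was 3 with the replicate block, in DESeq2 and after GC trends were removed, 1 with no filter on low genes, 0 without both libraries numbered 4, 0 without the 3 libraries with the highest intestine sums, and 0 to 2 with single libraries left out. The lower count was 1 with the replicate block, in DESeq2 and without both libraries numbered 4. Over the pathway lists 3 genes were higher and 6 lower. The higher count was 6 when libraries were scaled by size alone, 5 with TMM factors, 6 with the replicate block, 7 in DESeq2, 7 after GC trends were removed and 0 to 3 with single libraries left out. The lower count was 3 to 6 with single libraries left out, and both counts were 0 without the 3 libraries with the highest intestine sums. Fits with libraries left out rest on fewer libraries, and the cause of the other shifts was not tested.

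The sign of Lgr4, which was not called, turned in edgeR (−0.025), in DESeq2 (−0.062), after GC trends were removed (−0.052), without both libraries numbered 4 (−0.0083), without the 3 libraries (−0.056), and within a range of −0.30 to 0.32 with single libraries left out, where it was −0.30 without 2D replicate 2 and −0.042 without 3D replicate 3. The change of Lef1 against Tcf7l2 turned from −0.15 to 0.18 without 2D replicate 2 and ran from −0.56 to 0.18 with single libraries left out. That of Csnk1d turned to 0.041 when scaled by library size and 0.0040 after GC trends were removed. The other 7 tested genes of the 10 kept their sign under all alternatives run.

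Over all genes the calls numbered 676 in the main test, 1579 in DESeq2, 1405 with the replicate block, 1087 after GC trends were removed, 148 to 617 with single libraries left out and 14 without the 3 libraries. Scaling by library size alone shifted the all-gene median by 0.17 on the log2 scale and the share of lower genes among the calls from 59.3% to 39.1%. Same-numbered libraries deviated together for numbers 2, 3 and 4 (correlations 0.37, 0.25 and 0.81) and not for number 1 (−0.17), so the numbers were not taken as pairs, and 5 of 8 libraries correlated best with their own number. With the replicate block Lgr5, Tcf7, Axin2 and Lgr6 had limma adjusted p of 0.0172, 0.0162, 0.0331 and 0.0468, and Ctnnb1 passed too (0.0383). In the pair tests 0 of 12 passed in any setting, but this says nothing of stability, since a pair could pass only with most of the 12 at the smallest p the design allows, and none could with the replicate block (smallest p 0.125). Depth limits Tcf7l1 and Nkd1, which had at most 9 reads per library.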
